A study of Homo sapiens with 60 samples.

Results

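The 43 genes described here encode proteins that carry a cell through mitosis and cytokinesis, from cyclins and mitotic kinases to kinesin motors and the proteins of the cleavage furrow. They were taken by name from a fixed list, through the Ensembl identifiers of the deposited count table, and are 43 of its 60675 genes. All 43 passed the filter on low counts. RNA came from A549, a long-established line of human lung cancer cells, collected after 24 h of treatment in 20 groups of 3 libraries each. The 18 extract groups received water extracts of 6 crude drugs. Coptidis Rhizoma (CR) was given at 5.2, 26 and 130 µg/mL and Scutellariae Radix (SR) at 9.2, 46 and 230 µg/mL. Zingiberis Rhizoma Recens (ZRR), Zingiberis Rhizoma (ZR), Pinelliae Tuber (PT) and Zizyphi Fructus (ZF) were each given at 20, 100 and 500 µg/mL. These doses are called low, medium and high. Another group received wortmannin, an inhibitor of PI3-kinase, at 10 µM as positive control, and the last received the DMSO vehicle alone, at 0.1% in the sample labels and at 2% in the design text. That text sets the high dose at the IC20 for extracts that reached it below 500 µg/mL, so the doses of CR and SR were chosen by another criterion than those of the other extracts. Nothing in the labels says that the 3 libraries of a group came from separate cultures, so the p-values rest on a spread that may be technical.

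As background, entry into mitosis is driven by the kinase CDK1 with cyclin B, which phosphatases of the CDC25 family switch on, and exit requires that the anaphase promoting complex with CDC20 marks cyclin B and securin for destruction. Most of these genes are transcribed mainly in the G2 and M phases, under control of the MuvB complex with B-MYB and FOXM1, which acts through promoter elements called CHR and through CCAAT boxes bound by NF-Y. Their messenger RNA level in a growing culture is therefore widely used as a measure of proliferation. In bulk RNA, fewer cells in G2 and M and less RNA per such cell cannot be told apart, and this holds for every level below.

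The proximal promoters of 4 of these genes are printed, taken from a list that also named AURKA and BUB3. That list was chosen with earlier results of these data known. Each runs from 120 bases before the annotated start to the first 30 bases of the transcript, 5′ to 3′, from RefSeq on GRCh38.p14. Capitals mark the core of the CHR (TTTGAA) and the CCAAT box (CCAAT).
CCNB1: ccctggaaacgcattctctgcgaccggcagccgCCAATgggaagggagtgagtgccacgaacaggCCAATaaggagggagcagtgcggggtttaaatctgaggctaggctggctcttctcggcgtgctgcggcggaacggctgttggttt
CCNB2: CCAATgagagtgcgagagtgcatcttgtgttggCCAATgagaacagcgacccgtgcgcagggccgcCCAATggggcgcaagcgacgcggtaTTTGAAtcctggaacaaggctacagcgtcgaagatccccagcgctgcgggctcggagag
PLK1: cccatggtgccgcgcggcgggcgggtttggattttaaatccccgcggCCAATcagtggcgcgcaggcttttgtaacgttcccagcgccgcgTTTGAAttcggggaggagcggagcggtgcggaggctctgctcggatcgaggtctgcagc
CDC20: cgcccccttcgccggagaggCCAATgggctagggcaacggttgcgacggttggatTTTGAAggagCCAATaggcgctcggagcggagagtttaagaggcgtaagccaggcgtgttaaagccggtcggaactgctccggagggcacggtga

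These windows lie on the plus strand at chr5:69167030-69167179 for CCNB1, chr15:59105026-59105175 for CCNB2, chr16:23678769-23678918 for PLK1 and chr1:43358861-43359010 for CDC20. In CCNB2 and PLK1 the TTTGAA begins 29 bases before the start, and in CDC20 it begins 65 bases before it. CCNB1 holds CCAAT at 87 and 55 bases before the start, and TTTGAA was not found in it. Over the full windows of 300 bases, from 250 before to 50 after the start and on both strands (TTCAAA and ATTGG on the other strand), 36 of the 43 genes were in the table. The genes TPX2, BUB3, TTK, AURKA, FOXM1, UBE2C and BIRC5 were not matched. TTTGAA was in 24 of the 36 (66.7%), against 15.4% of all 27305 promoters of that length. CCAAT was in 27 (75.0%), against 35.7% of all promoters, and both were in 20 (55.6%), against 6.08%. In the printed windows the motifs do not overlap each other. In CDCA8 the matches that begin at bases -23 and -18 from the start share a base. A match of letters is a description of the window only.

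The 60 libraries held 17420373 to 36479629 estimated counts, and the 43 genes had between 208 (NDC80) and 36278 (TOP2A) counts in any library. The fit covered 17129 genes. Levels are given in CPM, counts divided by the normalised library size and scaled to a common total. For the cell markers in this paragraph the plain library total was used instead. The culture carried its epithelial markers, with KRT8 at 2036 to 4019 CPM over the 60 libraries, while EPCAM was at 3.67 to 7.44 CPM. The markers of blood, endothelium and fibroblasts stayed at or under 0.882 CPM, apart from CD14 at 0.652 to 3.73 CPM. All adjusted p-values are Benjamini-Hochberg values from the quasi-likelihood test of edgeR, taken over the 17129 genes within a comparison, and a gene is said to have fallen or risen only where that value was under 0.05. Changes are log2 fold changes ± standard error, levels are mean ± SD (n = 3), and all comparisons with vehicle share its 3 libraries.

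Summed over the 43 genes, the level was lowest with high CR, at 4025, 4175 and 4059 CPM, against 6284, 6257 and 6122 CPM with vehicle, or 65.7% of the vehicle mean. Wortmannin libraries held 4801, 4650 and 4444 CPM (74.4% of the vehicle mean), and high SR libraries 5175, 5136 and 5146 CPM (82.8%). Low and medium CR stood at 86.2% and 79.2%. High ZR and high ZRR stood at 91.5% and 92.7%, and the other 12 extract groups at 96.6% to 98.7%. No library of high CR, wortmannin or high SR overlapped vehicle in this sum. Vehicle had the highest mean, and groups without a called gene also lay fully below it. Examples were low SR (6104, 6079 and 6071 CPM) and low ZF (5927, 6035 and 6070 CPM).

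**Figure D1:**
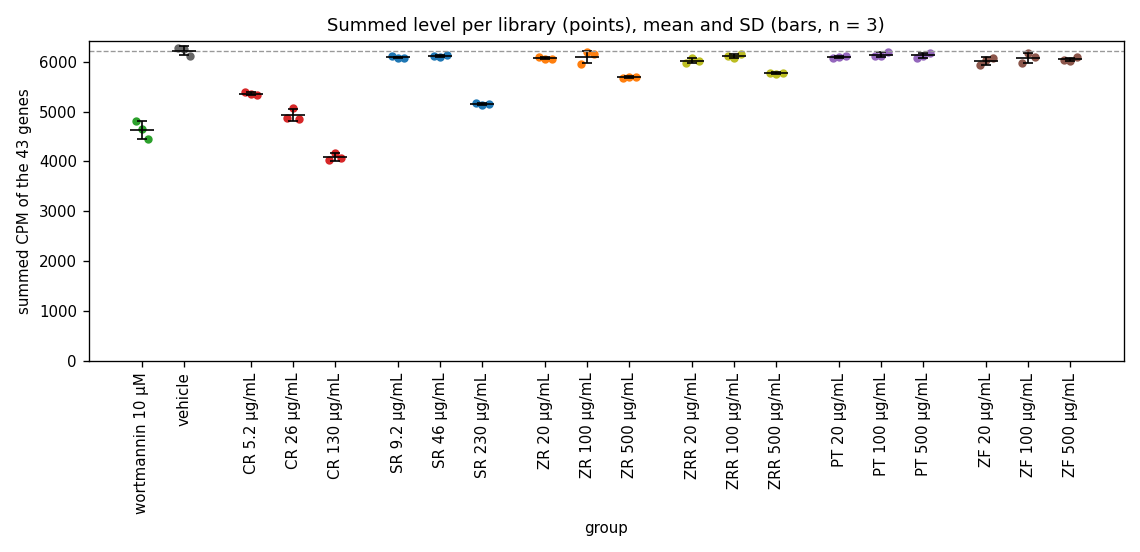
Summed level of the 43 mitosis and cytokinesis genes in CPM in each of the 20 groups, with libraries as points and the mean and SD as bars (n = 3). The 3 libraries of high CR lie between 4025 and 4175 CPM and those of vehicle between 6122 and 6284 CPM.

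Each of the 43 genes had its lowest group mean either with high CR (35 genes) or with wortmannin (8 genes). This count was not made over all tested genes, so no share can be set beside it. Against vehicle, 16.7% of all tested genes were called lower with high CR and 11.9% with wortmannin. The 8 with the lowest mean under wortmannin included CDC25B, CENPA, CDC20 and BUB3.

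**Figure D2:**
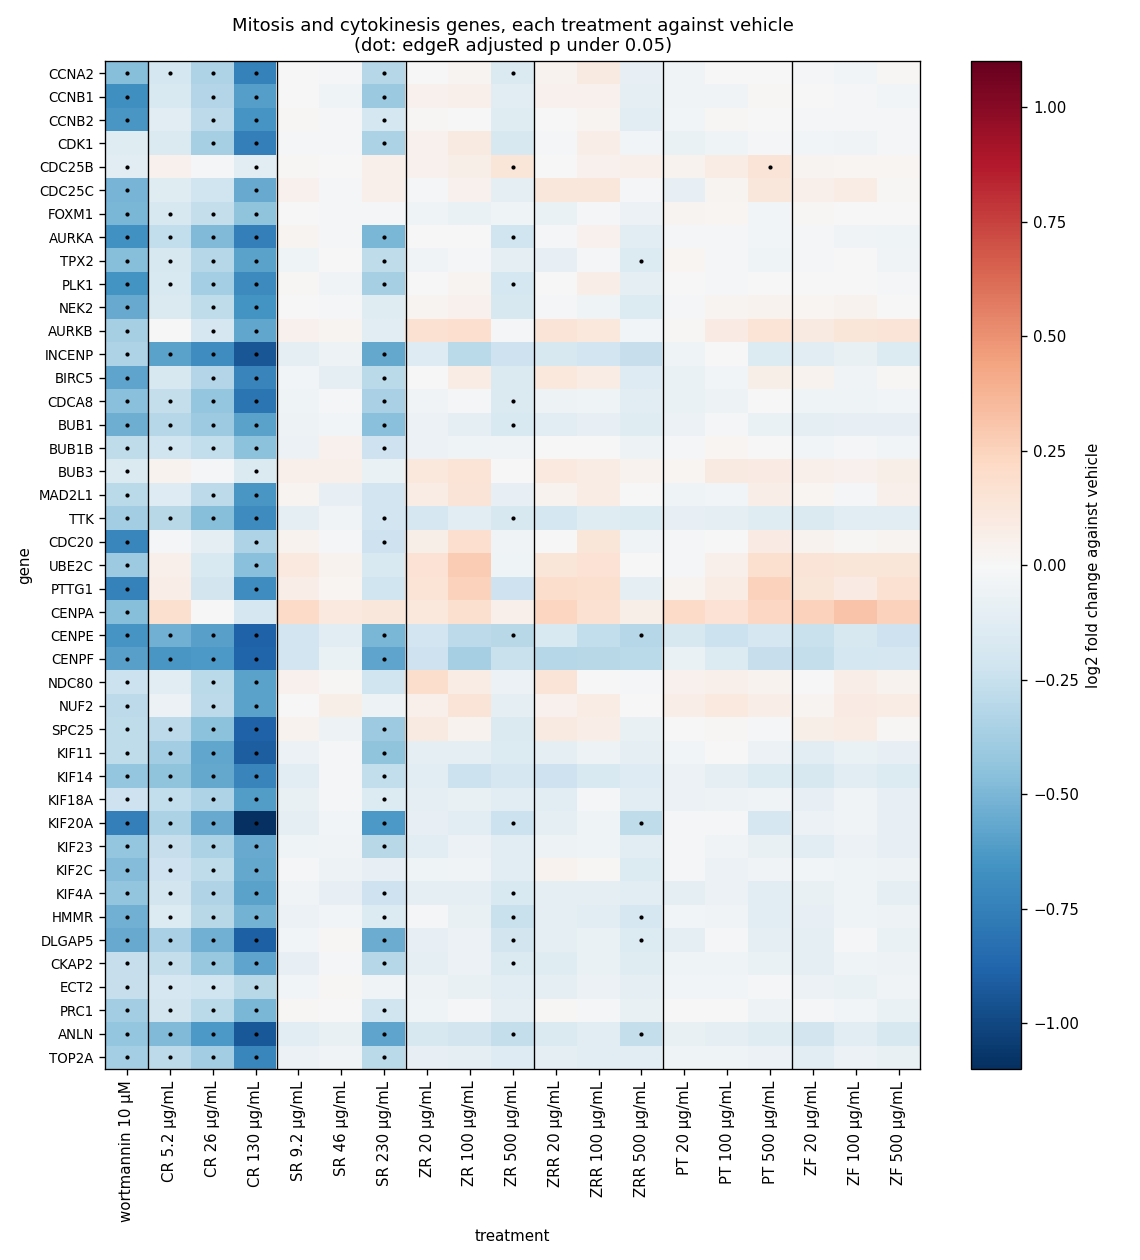
Log2 fold change against vehicle (colour) of the 43 genes (rows) in the 19 treated groups (columns, doses low to high within an extract), with a dot where the edgeR adjusted p was under 0.05. Dots fill nearly the whole of the wortmannin and high CR columns, with 42 genes each, and are absent from medium and low SR.

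High CR against vehicle gave the largest change. Of the 43 genes 42 fell, where 16.7% of all tested genes were called lower, and their median log2 fold change was -0.62, against 0.01 over all tested genes. The remaining gene was CENPA, the histone H3 variant that marks centromeres, at 32.5, 26.6 and 31.2 CPM with high CR against 31.6, 35.2 and 35.6 CPM with vehicle (-0.18 ± 0.10, adjusted p = 0.16). Its libraries overlapped, and those of the other 42 genes all lay below vehicle, which was so for 25% of all tested genes.

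In the CDK1 engine all 6 genes fell. Cyclin B1 (CCNB1, chr5:69167010-69178245, plus strand) stood at 145, 151 and 159 CPM with high CR, against 228, 231 and 233 CPM with vehicle (-0.61 ± 0.06, adjusted p = 1.61e-11). CDK1 itself (chr10:60778331-60794852, plus strand) stood at 84.9, 92.3 and 91.9 CPM with high CR, against 146, 155 and 153 CPM with vehicle (-0.75 ± 0.08, adjusted p = 4.12e-11). CDC25B (chr20:3786772-3806121, plus strand), a phosphatase that activates CDK1 at mitotic entry, had the smallest change of all 43, with 285, 274 and 275 CPM under high CR against 304, 294 and 306 CPM under vehicle (-0.12 ± 0.04, adjusted p = 0.0156). All 3 genes were lower in every high CR library than in any vehicle library, by a small margin for CDC25B, whose call was lost without vehicle replicate 1 or 3 or high CR replicate 3. FOXM1 (chr12:2857681-2877155, minus strand), a transcription factor of G2 and M genes, was at 160.2 ± 0.814 CPM with high CR against 217 ± 3.22 CPM with vehicle (-0.44 ± 0.05, adjusted p = 4.83e-11).

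The 3 mitotic kinases and their activator all fell. AURKA (chr20:56369389-56392337, minus strand), which matures centrosomes, was at 98.5, 103 and 102 CPM with high CR, against 172, 166 and 174 CPM with vehicle (-0.75 ± 0.04, adjusted p = 4.43e-21). PLK1 (chr16:23677656-23690367, plus strand), a kinase of mitotic entry and cytokinesis, was at 122, 125 and 120.4 CPM with high CR, against 202, 194 and 202 CPM with vehicle (-0.70 ± 0.03, adjusted p = 2.9e-22). Both groups of libraries were tight and far apart. TPX2, the activator of Aurora A, had a change of -0.59 ± 0.04 and the centrosomal kinase NEK2 one of -0.66 ± 0.06. Among the 4 genes of the chromosomal passenger complex, which corrects chromosome attachment, INCENP (chr11:62123973-62153163, plus strand), its scaffold, was at 43.5, 46.2 and 40.4 CPM with high CR, against 90.2, 82.8 and 77.4 CPM with vehicle (-0.94 ± 0.12, adjusted p = 2.78e-08). The others, AURKB, BIRC5 (survivin) and CDCA8 (borealin), lay between -0.80 and -0.57.

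The spindle checkpoint holds anaphase until all chromosomes are attached, and its 5 genes all fell with high CR. The kinase BUB1 (chr2:110637698-110678114, minus strand) was at 77.5, 80.5 and 76.6 CPM with high CR, against 121, 120.5 and 112 CPM with vehicle (-0.59 ± 0.05, adjusted p = 2.22e-14). BUB3 (chr10:123154277-123170467, plus strand), which brings BUB proteins to kinetochores, moved least of the 5, with 161, 162 and 161 CPM under high CR against 173, 182 and 184 CPM under vehicle (-0.16 ± 0.06, adjusted p = 0.0231). Neither gene overlapped between the groups, although the gap for BUB3 was narrow and its call was lost in 4 of the 6 fits without a single library. BUB1B, MAD2L1 and the kinase TTK lay between -0.70 and -0.45.

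Of the genes that act with the anaphase promoting complex, its activator CDC20 (chr1:43358955-43363203, plus strand) was at 132, 132 and 135 CPM with high CR, against 166, 168 and 172 CPM with vehicle (-0.34 ± 0.06, adjusted p = 1.06e-05). PTTG1 (chr5:160421822-160428744, plus strand), securin, which guards the link between sister chromatids and whose near-identical copy PTTG2 could share its reads, was at 72.5, 70.2 and 72.1 CPM with high CR, against 109.6, 116 and 119.9 CPM with vehicle (-0.68 ± 0.13, adjusted p = 2e-05). The ubiquitin-conjugating enzyme UBE2C had a change of -0.46 ± 0.10. All 3 fell. At the kinetochore CENPE, CENPF, NDC80, NUF2 and SPC25 fell, with changes between -0.89 and -0.59. CENPF (chr1:214603195-214664588, plus strand), a large protein of the outer kinetochore, was at 138, 154 and 140.4 CPM with high CR, against 287, 275 and 235 CPM with vehicle (-0.88 ± 0.13, adjusted p = 1.72e-07).

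The largest fall of all 43 was that of KIF20A (chr5:138178719-138187715, plus strand), a kinesin of the central spindle needed for cytokinesis. It stood at 36.0, 37.8 and 36.7 CPM with high CR, against 79.1, 78.6 and 78.2 CPM with vehicle (-1.09 ± 0.06, adjusted p = 1.74e-19). KIF11 (chr10:92593286-92655395, plus strand), the motor that pushes spindle poles apart, was at 92.6 ± 3.15 CPM with high CR against 174 ± 2.08 CPM with vehicle (-0.91 ± 0.06, adjusted p = 1.78e-18). The other 5 kinesins had changes between -0.73 and -0.55. ANLN (chr7:36389806-36453791, plus strand), the scaffold of the cleavage furrow, was at 112, 118 and 112 CPM with high CR, against 222, 221 and 211 CPM with vehicle (-0.93 ± 0.07, adjusted p = 1.38e-16), while ECT2 and PRC1, also of cytokinesis, had -0.31 ± 0.04 and -0.51 ± 0.04. The spindle proteins DLGAP5, CKAP2 and HMMR had -0.90 ± 0.05, -0.58 ± 0.04 and -0.52 ± 0.04. TOP2A (chr17:40388516-40417950, minus strand), the topoisomerase that untangles sister chromatids, was at 614, 655 and 619.5 CPM with high CR, against 1067, 1053 and 987 CPM with vehicle (-0.72 ± 0.05, adjusted p = 8.4e-18). None of these groups of libraries overlapped.

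The change was graded over the CR doses. Low CR lowered 27 genes, where 9.15% of all tested genes were called lower (median -0.19), and medium CR lowered 36, where 11.1% were (median -0.33). The mean level fell stepwise from vehicle through low and medium to high CR for 36 of the 43 genes, against 11.8% of all tested genes. AURKA stood at 171 ± 3.80 CPM with vehicle, 142 ± 3.49 CPM with low, 122 ± 5.16 CPM with medium and 101 ± 2.50 CPM with high CR. KIF20A took the same course, with 78.6 ± 0.456 CPM, 61.7 ± 3.57 CPM, 53.6 ± 3.02 CPM and 36.8 ± 0.936 CPM over the same 4 groups.

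At low CR the calls covered the 7 kinesins, the 3 spindle proteins and the 3 cytokinesis genes, with ANLN at -0.49 ± 0.07 (adjusted p = 3.38e-07). Of the 6 genes of the CDK1 engine only CCNA2, cyclin A2, was called there (-0.19 ± 0.04, adjusted p = 0.00146), and CCNB1 had -0.17 ± 0.06 (adjusted p = 0.0514). The CDC20, UBE2C and PTTG1 genes were not called at low CR or at medium CR. CDC20 stood at 158, 164 and 176 CPM with low CR and 159, 150.5 and 159 CPM with medium CR, and the low CR libraries overlapped those of vehicle. With low ZF, which shares the code number of CR, as reference in place of vehicle, KIF14, KIF23, KIF4A, HMMR, ECT2, TTK, CENPE and CENPF were not called at low CR, and 19 genes were, where 5.11% of all tested genes were called in either direction. HMMR (-0.06 there, adjusted p = 0.536) was also lost without the filter on low counts, with only the 6 libraries compared, and without any one of vehicle replicates 1 and 2 and low CR replicates 2 and 3. At low CR the change also ran with transcript length over the 43 genes (Spearman correlation -0.57), and with the length gradient described below as a covariate 35 were called. CCNB1 (-0.31), CDK1 (-0.34), CDC20 (-0.16), UBE2C (-0.20) and PTTG1 (-0.25) were then among them and HMMR and FOXM1 were not. The difference between genes in the dose of their first call was not tested.

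Neighbouring doses were compared after the results above had been seen. High against medium CR lowered 35 genes, where 3.94% of all tested genes were called lower, with KIF20A at -0.54 ± 0.06 (adjusted p = 2.36e-08). Medium against low CR lowered 9, where 1.5% were, with PLK1 at -0.21 ± 0.03 (adjusted p = 3.44e-05) and AURKA at -0.21 ± 0.04 (adjusted p = 0.0004). That count of 9 was 2, 4, 5 and 4 without medium CR replicates 1 and 3 and low CR replicates 1 and 2 taken singly in that order, and 0 with only the 6 libraries compared. High against low CR lowered 42 genes, where 12.3% were, and the remaining gene was CENPF (-0.24 ± 0.13, adjusted p = 0.157).

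**Figure D3:**
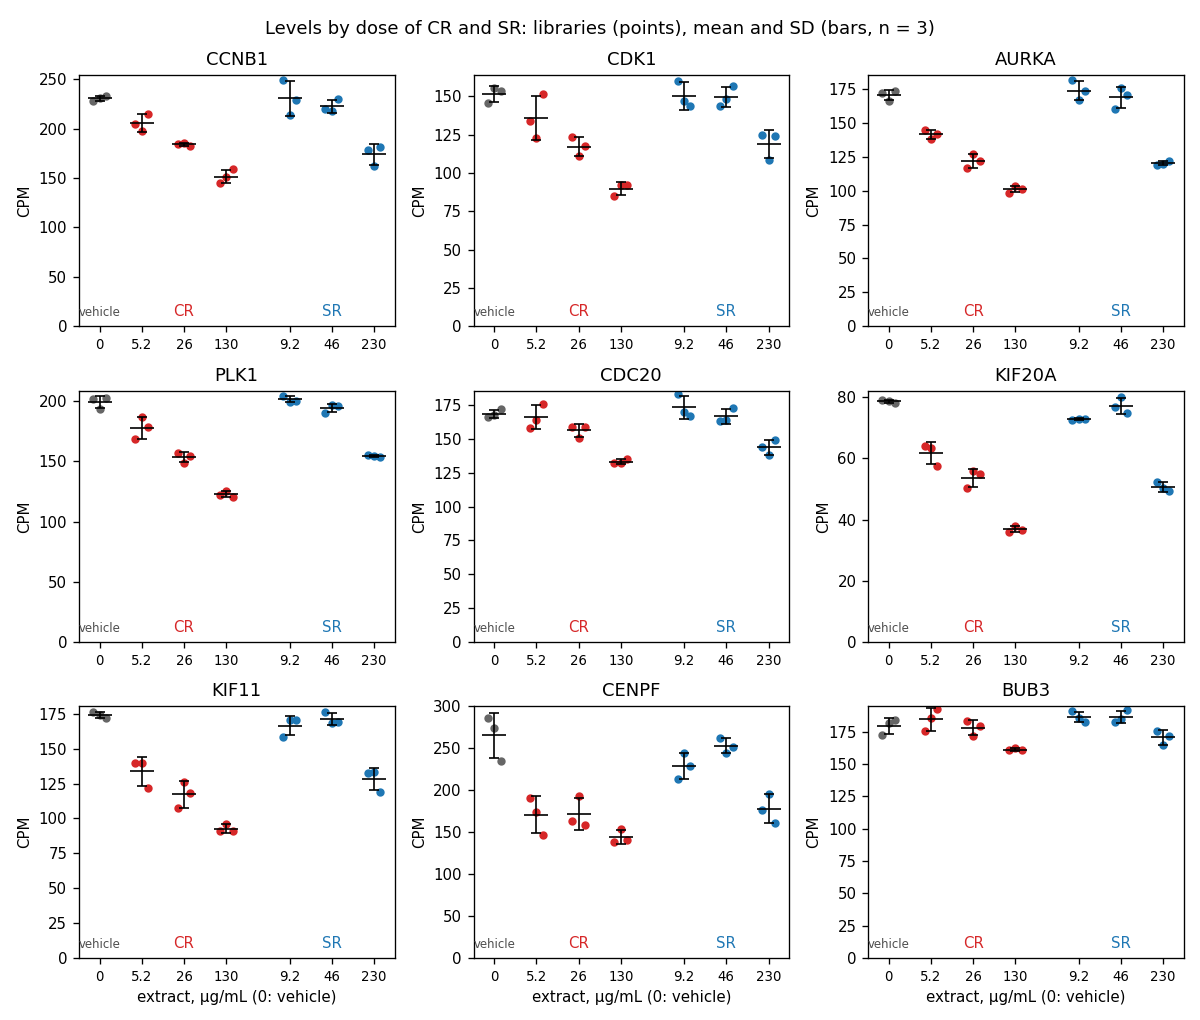
Levels in CPM (linear axes from 0) of 9 of the genes in vehicle (0 µg/mL), in 3 doses of CR and in 3 doses of SR, with libraries as points and mean and SD as bars (n = 3). AURKA, PLK1 and KIF20A descend at each step of CR, whereas with SR the low and medium doses lie near vehicle and the high dose lies lower.

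Wortmannin against vehicle also lowered 42 of the 43 genes, where 11.9% of all tested genes were called lower, with a median of -0.43 against 0.01 over all tested genes. Here the remaining gene was CDK1, at 141, 144 and 129.9 CPM with wortmannin against 146, 155 and 153 CPM with vehicle (-0.13 ± 0.08, adjusted p = 0.235). Its libraries did not overlap, but the gap was small. Its partner CCNB1 was at 151, 148 and 136 CPM with wortmannin, against 228, 231 and 233 CPM with vehicle (-0.67 ± 0.06, adjusted p = 3.98e-12), and these libraries lay far apart. CDC25B fell to 298, 265 and 266 CPM with wortmannin, against 304, 294 and 306 CPM with vehicle (-0.13 ± 0.04, adjusted p = 0.0131), and its libraries overlapped those of vehicle. That call was lost without wortmannin replicate 2 or 3. FOXM1 was at 154 ± 4.79 CPM with wortmannin and 217 ± 3.22 CPM with vehicle (-0.50 ± 0.05, adjusted p = 5.22e-12).

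With wortmannin the 3 largest falls were those of KIF20A, PTTG1 and CDC20. CDC20 was at 111, 101 and 95.3 CPM with wortmannin, against 166, 168 and 172 CPM with vehicle (-0.72 ± 0.06, adjusted p = 4.98e-13). PTTG1 was at 72.9, 70.9 and 63.1 CPM with wortmannin, against 109.6, 116 and 119.9 CPM with vehicle (-0.74 ± 0.13, adjusted p = 1.2e-05). Both were well below every vehicle library. KIF20A was at 48.1, 47.8 and 44.5 CPM with wortmannin against 79.1, 78.6 and 78.2 CPM with vehicle (-0.75 ± 0.06, adjusted p = 3.94e-13).

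The kinases AURKA and PLK1 were at 108 ± 2.58 CPM and 127 ± 5.53 CPM with wortmannin, against 171 ± 3.80 CPM and 199 ± 4.98 CPM with vehicle. Their changes were -0.66 ± 0.04 (adjusted p = 3.21e-18) and -0.66 ± 0.03 (adjusted p = 3.05e-20). In the spindle checkpoint all 5 genes fell, with BUB1 at 81.4 ± 1.70 CPM under wortmannin against 118 ± 5.14 CPM under vehicle (-0.53 ± 0.05, adjusted p = 2.84e-12). BUB3 was at 161 ± 5.28 CPM with wortmannin and 179.7 ± 6.24 CPM with vehicle (-0.16 ± 0.06, adjusted p = 0.0302), a call lost in 4 of the 6 fits without a single library. At the kinetochore all 6 genes fell, CENPF to 186, 167 and 173 CPM with wortmannin against 287, 275 and 235 CPM with vehicle (-0.60 ± 0.12, adjusted p = 0.000249). The passenger complex genes lay between -0.58 and -0.34, and TOP2A had -0.38 ± 0.05 (adjusted p = 1.26e-08). The wortmannin calls of MAD2L1, NDC80 and INCENP were each lost in 4 of the 6 fits without a single library. That of SPC25 was lost in 2, and that of NDC80 also without the filter on low counts and with a replicate block.

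High CR and wortmannin were set against each other directly, after each had been seen to lower 42 genes. In CR 24 genes were lower, where 20.2% of all tested genes were called lower, and 2 were higher, where 19.9% were called higher. The 2 higher with CR were CDC20, at 132, 132 and 135 CPM with high CR against 111, 101 and 95.3 CPM with wortmannin (0.38 ± 0.06, adjusted p = 1.31e-06), and CENPA, at 32.5, 26.6 and 31.2 CPM against 23.6, 25.8 and 24.5 CPM (0.29 ± 0.10, adjusted p = 0.0195). The call of CENPA was lost in 4 of the 6 fits without a single library. The lowest relative to wortmannin were KIF11 (-0.63 ± 0.06, adjusted p = 4.33e-13) and CDK1, at 84.9, 92.3 and 91.9 CPM with high CR against 141, 144 and 129.9 CPM with wortmannin (-0.62 ± 0.08, adjusted p = 5.23e-09). SPC25, an NDC80 complex subunit, and INCENP followed, at -0.61 ± 0.09 and -0.60 ± 0.12. Between these 2 treatments the median of the 43 was -0.16, against -0.01 over all tested genes. CCNB1, PLK1, AURKA, BUB1, BUB3, FOXM1 and CDC25B were not called, with CCNB1 at 0.06 ± 0.06 and PLK1 at -0.04 ± 0.03.

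**Figure D4:**
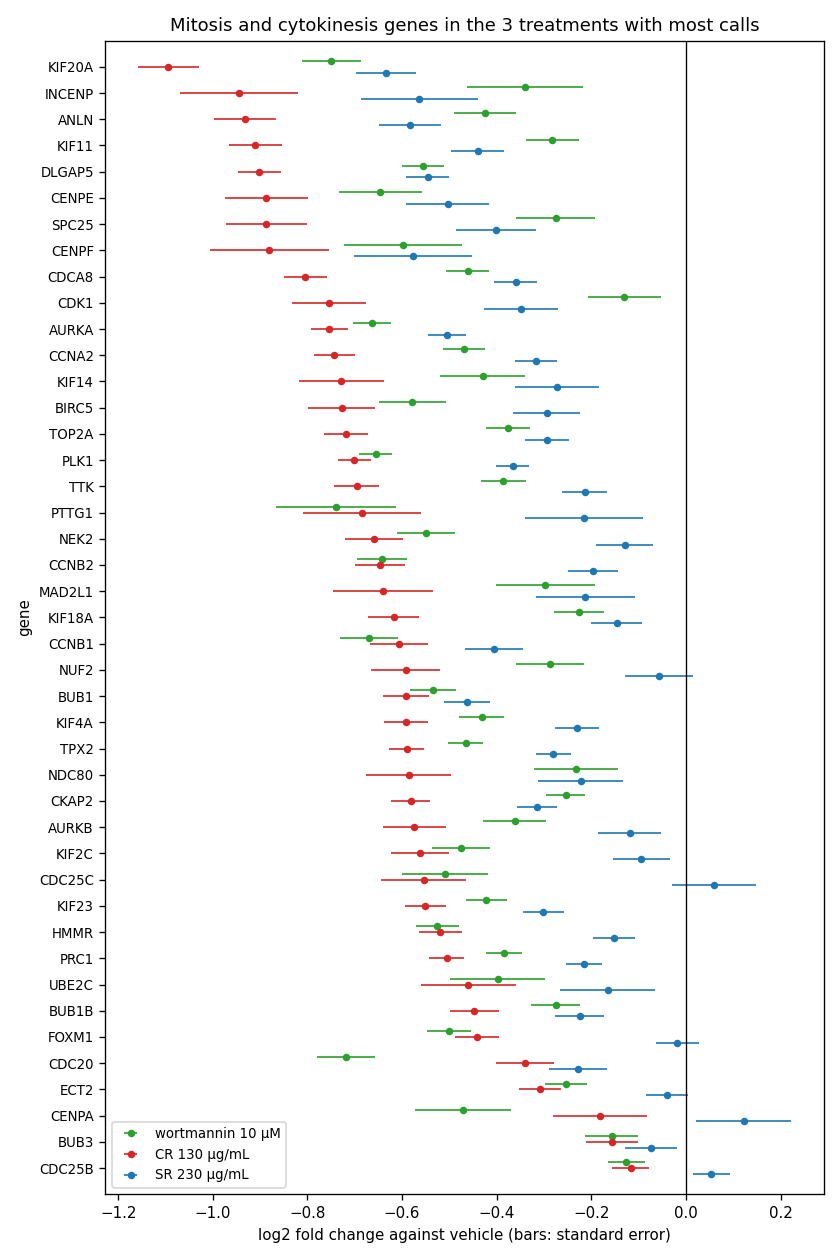
Log2 fold change against vehicle (horizontal axis, bars for the standard error) of the 43 genes (vertical axis, sorted by the change with high CR) under wortmannin, high CR and high SR. CDK1 and KIF11 stand further left with high CR than with wortmannin, and CDC20 stands further left with wortmannin.

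High SR against vehicle lowered 29 of the 43 genes, where 10.9% of all tested genes were called lower, with a median of -0.23 against 0.01 over all tested genes. KIF20A was at 52.3, 50.3 and 49.4 CPM with high SR, against 79.1, 78.6 and 78.2 CPM with vehicle (-0.63 ± 0.06, adjusted p = 3.26e-11). ANLN was at 148, 149.7 and 139 CPM with high SR, against 222, 221 and 211 CPM with vehicle (-0.58 ± 0.07, adjusted p = 7.6e-10). AURKA was at 119, 119 and 122 CPM with high SR, against 172, 166 and 174 CPM with vehicle (-0.50 ± 0.04, adjusted p = 1.82e-14). All 3 genes separated fully from vehicle.

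In the CDK1 engine 4 of 6 genes fell with high SR, among them CCNB1 (-0.41 ± 0.06, adjusted p = 8.99e-07) and CDK1 (-0.35 ± 0.08, adjusted p = 0.000597). The phosphatase genes CDC25B and CDC25C were not called, at 0.05 ± 0.04 and 0.06 ± 0.09. FOXM1 was at 213, 218 and 214 CPM with high SR, against 221, 216 and 215 CPM with vehicle (-0.02 ± 0.05, adjusted p = 0.83), and the libraries overlapped. PLK1 was at 155 ± 0.931 CPM with high SR and 199 ± 4.98 CPM with vehicle (-0.37 ± 0.03, adjusted p = 4.89e-12). CDC20 was at 144 ± 5.32 CPM with high SR and 168 ± 3.00 CPM with vehicle (-0.23 ± 0.06, adjusted p = 0.00381, not called without SR replicate 2), whereas UBE2C and PTTG1 were not called. BUB1 had -0.46 ± 0.05 (adjusted p = 1.24e-10), CENPF -0.58 ± 0.12 (adjusted p = 0.000413) and TOP2A -0.29 ± 0.05 (adjusted p = 2.42e-06), while BUB3, CENPA, NDC80 and NUF2 were not called.

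Medium SR and low SR left the 43 genes without a call in edgeR's test, with 0 and 4 of them at an unadjusted p under 0.05, and DESeq2 also called 0 at each dose. Of all tested genes 0% and 0.00584% were called in either direction. High against medium SR, a comparison added after the data were seen, lowered 26 genes, where 9.42% of all tested genes were called lower. KIF20A stood at 52.3, 50.3 and 49.4 CPM with high SR, against 76.7, 79.9 and 74.7 CPM with medium SR (-0.61 ± 0.06, adjusted p = 1.15e-10), with no overlap. High against low SR likewise lowered 26, where 9.36% were. A stepwise fall of the means from vehicle through low and medium to high SR was seen for 5 of the 43 genes, against 5.57% of all tested genes.

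High SR against high CR, at unequal doses of 230 and 130 µg/mL, gave 40 genes higher with SR, where 11.1% of all tested genes were called higher. PLK1 was at 156, 154 and 154 CPM with high SR, against 122, 125 and 120.4 CPM with high CR (0.33 ± 0.03, adjusted p = 8.37e-11), and FOXM1 at 213, 218 and 214 CPM against 160.1, 161 and 159 CPM (0.42 ± 0.05, adjusted p = 3.95e-10). Both sets of libraries were separate. BUB3, CDC20 and CENPF were not called, with CDC20 at 0.11 ± 0.06 (adjusted p = 0.205).

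The gingers at 500 µg/mL gave smaller changes. High ZR lowered 13 genes, where 2.44% of all tested genes were called lower, and raised CDC25B, where 2.91% were called higher, with a median of -0.15. CENPE, the kinesin that moves chromosomes to the spindle equator, was at 55.8, 47.2 and 49.2 CPM with high ZR, against 64.6, 62.0 and 60.8 CPM with vehicle (-0.30 ± 0.09, adjusted p = 0.025). ANLN was at 187, 177 and 182 CPM with high ZR, against 222, 221 and 211 CPM with vehicle (-0.26 ± 0.06, adjusted p = 0.00695). PLK1 was at 176, 175 and 172 CPM with high ZR, against 202, 194 and 202 CPM with vehicle (-0.20 ± 0.03, adjusted p = 7.73e-05). All 3 separated from vehicle. CDC25B was at 329.7, 321 and 339 CPM with high ZR, against 304, 294 and 306 CPM with vehicle (0.13 ± 0.04, adjusted p = 0.0375). That call of CDC25B was lost in 5 of the 6 fits without a single library (all but ZR replicate 2), without the filter and with only the 6 libraries compared, with adjusted p of 0.0526 to 0.505. The call of CENPE was lost in 4 of the 6 fits without a single library. The other genes lowered were HMMR, KIF20A, AURKA, DLGAP5, TTK, BUB1, KIF4A, CCNA2, CDCA8 and CKAP2, with changes between -0.24 and -0.16. Of these calls, those of BUB1, CCNA2 and CDCA8 were each lost in 5 of the 6 such fits. That of KIF4A was lost in 4, and those of TTK and CKAP2 in 2 each.

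High ZRR lowered 6 genes, where 1.77% of all tested genes were called lower, with a median of -0.11. CENPE was at 49.5, 48.3 and 53.1 CPM with high ZRR, against 64.6, 62.0 and 60.8 CPM with vehicle (-0.31 ± 0.09, adjusted p = 0.0263). KIF20A was at 65.0, 62.2 and 66.6 CPM with high ZRR, against 79.1, 78.6 and 78.2 CPM with vehicle (-0.28 ± 0.06, adjusted p = 0.00286). Neither overlapped, but the call of CENPE was lost in 4 of the 6 fits without a single library. The other 4 were ANLN, HMMR, TPX2 and DLGAP5, between -0.26 and -0.15. Of these calls, that of DLGAP5 was lost in 5 of the 6 such fits, that of HMMR in 2 and that of TPX2 in 1. Without single libraries the total of 14 called with high ZR was 8 (vehicle replicates 1 and 2, ZR replicates 1 and 3) and the 6 called with high ZRR were 3 (vehicle replicates 1 and 2, ZRR replicate 2). With the transcript length gradient of each library as a covariate, described below, the counts were 30 and 21, where 11.7% and 8.73% of all tested genes were called in either direction.

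High ZRR set against high ZR at the same dose gave 0 calls among the 43 in edgeR, with 2 at an unadjusted p under 0.05 and 0 in DESeq2, and 0.712% of all tested genes were called in either direction. The difference between the gingers in their change from low to high dose also gave 0 calls, with 2 unadjusted and 0 in DESeq2, where 0.14% of all tested genes were called in either direction. High against low ZR lowered HMMR, AURKA, NEK2, PLK1 and CCNA2, where 2.18% of all tested genes were called lower, with AURKA at -0.22 ± 0.04 (adjusted p = 0.000138). Those 5 were 3 without high ZR replicate 1 or 3 or low ZR replicate 3, 8 without low ZR replicate 1 or 2, and 0 with only the 6 libraries compared. High against low ZRR lowered BIRC5 alone (-0.25 ± 0.07, adjusted p = 0.0278), where 1.7% were, and that call was lost in 5 of the 6 fits without a single library, while without low ZRR replicate 1 there were 3 calls.

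High PT raised CDC25B, where 1.07% of all tested genes were called higher, and no other gene of the 43 was called. CDC25B was at 339, 332 and 329.9 CPM with high PT, against 304, 294 and 306 CPM with vehicle (0.15 ± 0.04, adjusted p = 0.0449). The libraries did not overlap, but the call was lost without any one of the 6 libraries, and with a replicate block. PLK1 had 0.00 ± 0.03, CCNB1 0.02 ± 0.06 and AURKA -0.03 ± 0.04 with high PT.

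No gene of the 43 was called against vehicle with high ZF, or with the medium and low doses of ZRR, ZR, PT and ZF, in edgeR's test. In these 9 groups 2 to 15 of the 43 had an unadjusted p under 0.05, with 15 each in medium ZR and low ZRR. DESeq2 called 0 except for 4 with medium ZR and 1 with low ZRR, where it called 4.33% and 0.613% of all tested genes in either direction. In edgeR the share of all tested genes called in either direction was 0.922% with medium ZR, 0.28% with medium ZRR, 0.111% with low ZRR and 0.0175% with medium PT. It was 0.0117% with medium ZF and with low ZF, 0.00584% with high ZF and with low ZR, and 0% with low PT. In high ZF, PLK1 was at 194, 201 and 196 CPM against 202, 194 and 202 CPM with vehicle, and CDK1 at 144, 168 and 138 CPM against 146, 155 and 153 CPM with vehicle, and both overlapped. High against low PT and high against low ZF gave 0 calls, with 4 and 0 unadjusted and 0 each in DESeq2, where 0.549% and 0% of all tested genes were called in either direction.

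Most of the 43 genes varied alike over the 20 groups. Correlations were not taken for other tested genes, so likeness particular to the 43 was not tested. The Pearson correlation of a gene's 20 group means (log2 CPM) with the mean of the other 42 had a median of 0.95, and 32 genes exceeded 0.9, with all points sharing the libraries and their depth. The genes closest to the rest were CDCA8 (0.99), CCNA2 (0.99) and PRC1 (0.99), and those least like it were CDC25B (0.65), CENPA (0.75) and CDC20 (0.80). The spread between replicates, as a median coefficient of variation over the groups, ran from 1.90% for PLK1 to 10.2% for CENPF.

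CENPF and CENPE have the longest annotated transcripts of the 43, at 10307 and 8612 bases. Both lay below vehicle in all 19 treated groups, which was not particular to long transcripts. The means of CDCA8 (2469 bases) and KIF20A (3201 bases) were also highest with vehicle, while BUB3 (7828 bases) was highest with medium ZR. A gradient with transcript length ran across the libraries. The slope of log2 CPM on log2 length was 0.0492 to 0.0668 with wortmannin, 0.00192 to 0.0352 with high CR and -0.0920 to -0.0239 with low CR, against 0.0155 to 0.0708 in the vehicle libraries. Over the 43 genes the Spearman correlation of the fold change against vehicle with length was 0.19 with wortmannin, -0.15 with high CR, -0.26 with high SR, -0.57 with low CR and -0.69 with medium ZR, given as a description over genes. With the slope as a covariate CENPF at low CR had -0.31 in place of -0.64 ± 0.12, and CENPE had -0.34 in place of -0.53 ± 0.09, both still called. The total calls were then 42 with wortmannin, 43 with high CR, 41 with medium CR, 35 with low CR and 36 with high SR. Of all tested genes 38.5%, 45.3%, 27.9%, 12.2% and 32.7% were called in either direction in the same order.

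Related genes that were not among the 43 were counted from 6 further lists. The shares of all tested genes to set beside their counts were 16.7% called lower and 18.5% called higher with high CR, 11.9% and 13.4% with wortmannin, and 10.9% and 13% with high SR. Of 68 other mitosis genes 64 fell with high CR (median -0.62), 50 with wortmannin (-0.32) and 49 with high SR (-0.26). With high CR the largest falls there were those of MKI67, the proliferation marker Ki-67, at 224 ± 4.58 CPM with high CR against 495 ± 60.3 CPM with vehicle (-1.15 ± 0.20, adjusted p = 1.06e-05), and ERCC6L, a helicase of anaphase bridges (-1.07 ± 0.06, adjusted p = 5.24e-19). With wortmannin they were UBE2S, an enzyme that extends ubiquitin chains (-0.63 ± 0.14, adjusted p = 0.000661), and KNSTRN, a kinetochore adaptor (-0.54 ± 0.05, adjusted p = 4.23e-11). For MKI67 vehicle had the highest mean of all groups. Its means ran from 342 CPM (medium ZR) to 472 CPM (low PT) in the groups without a call among the 43.

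The list of 30 DNA replication genes, which are expressed mainly in S phase, was counted in the same treatments. With high CR 28 of 30 fell and with high SR 17 of 30 fell, with medians of -0.48 and -0.21. With wortmannin 4 fell and 4 rose, shares near those of all tested genes, with a median of -0.02. The largest fall with high CR was that of RRM2, a subunit of ribonucleotide reductase (-0.96 ± 0.03, adjusted p = 2.34e-27). With wortmannin the extremes were RRM1 (-0.20 ± 0.04, adjusted p = 0.000181) and RFC5 (-0.18 ± 0.04, adjusted p = 0.00182), which fell, and FEN1 (0.19 ± 0.07, adjusted p = 0.0432) and LIG1 (0.14 ± 0.04, adjusted p = 0.00896), which rose. The difference between lists was not tested.

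**Figure D5:**
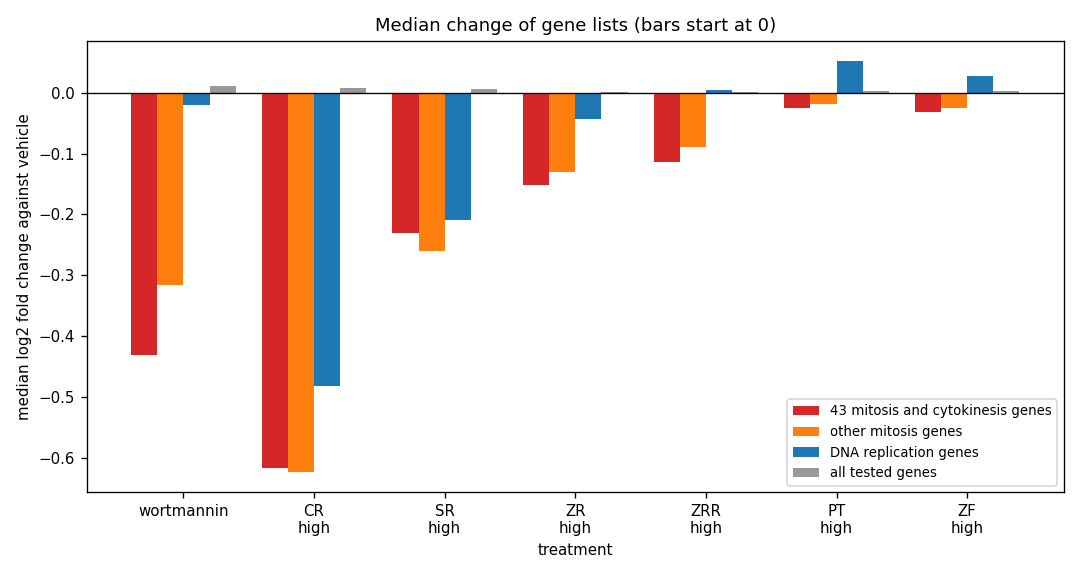
Median log2 fold change against vehicle (vertical axis, bars from 0) in wortmannin and the 6 high doses, for the 43 genes, 68 other mitosis genes, 30 DNA replication genes and all tested genes. The replication list stands at -0.48 with high CR and at -0.02 with wortmannin.

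Of 15 subunits and cofactors of the anaphase promoting complex 5 fell with wortmannin (median -0.14), and 4 fell and 2 rose with high CR (median -0.05). The counts with high CR lie near the shares of all tested genes. FZR1 (-0.26 ± 0.06, adjusted p = 0.00136) and CDC23 (-0.21 ± 0.05, adjusted p = 0.000507) fell most with wortmannin, and with high CR ANAPC2 (-0.37 ± 0.06) and ANAPC15 (-0.36 ± 0.13) fell while ANAPC16 (0.28 ± 0.10) and CDC16 (0.25 ± 0.05) rose. Of 9 cohesin genes, which hold sister chromatids together, 2 fell with wortmannin and 5 with high CR, with SMC3 at -0.26 ± 0.04 under wortmannin and PDS5B at -0.45 ± 0.09 under high CR.

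Among 15 regulators of the MuvB and DREAM complexes, which govern transcription of these genes, 4 fell and 2 rose with wortmannin, and 7 fell and 2 rose with high CR. The numbers that rose are no larger a share than that of all tested genes. MYBL2 (B-MYB), the activator, had -0.56 ± 0.05 with high CR (adjusted p = 5.2e-12) and -0.27 ± 0.05 with wortmannin (adjusted p = 0.000119). LIN9, a MuvB subunit, had -0.29 ± 0.07 with wortmannin (adjusted p = 0.000854), and RBL2 (p130), the pocket protein of the repressive form, rose there (0.35 ± 0.09, adjusted p = 0.00206). E2F4 and E2F5, its partners, rose with high CR (0.39 ± 0.05 and 0.39 ± 0.09).

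Of 12 tested genes for CDK inhibitors and p53 targets, 5 rose and 2 fell with high CR, 7 rose and 1 fell with high SR, and 1 of each was called with wortmannin. The falls with high CR match the share of all tested genes. CDKN1A (p21), an inhibitor of cyclin-dependent kinases, was at 199, 199 and 198 CPM with high CR, against 109.7, 105 and 118 CPM with vehicle (0.84 ± 0.05, adjusted p = 2.86e-20). With high SR it was at 163, 161 and 169.6 CPM (0.57 ± 0.05, adjusted p = 7.89e-14), and with wortmannin at 109, 119 and 115 CPM (0.05 ± 0.05, adjusted p = 0.531). The high CR and high SR libraries lay above vehicle, and those of wortmannin overlapped it. GADD45A, a DNA damage and stress gene, rose with high CR (1.27 ± 0.10, adjusted p = 1.51e-14) and with high SR (1.24 ± 0.10, adjusted p = 1.11e-13). CDKN2C (p18) fell with high CR (-1.30 ± 0.11, adjusted p = 2.76e-13). With wortmannin TP53INP1 rose (0.50 ± 0.11) and CCNG1 fell (-0.25 ± 0.07). Whether these genes bear on the level of the 43 was not tested.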

How the data were processed

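Strand-specific mRNA libraries of A549 RNA were read as pairs of 100 bases, per the labels' protocols. The authors' deposited values are estimated counts (from the values themselves, without normalisation) for 60675 Ensembl genes in 269 libraries. The 60 libraries whose names match the labels were taken, and 209 columns were not used. Tools listed, without their roles, per the submitters' processing notes are RSEM 1.3.3, STAR 2.7.3a, Trim Galore 0.6.5 and FastQC 0.11.9, with the build GRCh38 (hg38). Neither annotation release nor strand setting is given in the sources used here, so overlapping and antisense genes cannot be told apart.

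Estimated counts were rounded. Symbols came from a name table (56558 identifiers) and GENCODE 29 (497), and 3620 (0.0579% of counts) had none. One robust quasi-likelihood fit in edgeR 4.0.16 (R 4.3.3), after filterByExpr by group and TMM scaling, covered the 60 libraries with 40 residual degrees of freedom, with Benjamini-Hochberg adjustment over 17129 genes within a comparison. The common biological coefficient of variation was 7.04%. A standard error is the fold change divided by the square root of F. Replicates correlated at 0.982 or above, and 0 libraries were identical. Gene coordinates and transcript lengths (longest transcript) are those of GENCODE 29 on GRCh38.

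Vehicle, wortmannin and extract libraries carry sample codes with unlike first numbers, and so do CR and SR libraries. Code and treatment therefore cannot be told apart in comparisons with vehicle, of high CR with wortmannin or of high SR with high CR. Doses of one extract share the first number. Alternatives were DESeq2's size factors, no filter, DESeq2 1.42.0, a replicate block, only the libraries compared, a length covariate, and each library left out. Added after the data were seen were a fit without 3 libraries, references sharing the code number, and 5 comparisons (neighbouring doses of CR, high against medium SR, and high CR against wortmannin and SR). The members, the lists and the rule for named genes (a panel of 12 genes plus the 2 largest called rises and falls in wortmannin and each high dose, and in other lists the 2 largest each way) were chosen with earlier results of these data known. KIF11, SPC25, CCNA2, NEK2, BIRC5 and other genes outside this rule were named after their values were seen. Of the genes that this rule picks in the other lists, 1 is not reported here. The fit was tested on simulated data.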

Additional observations from a re-analysis of the deposited data

How the results depend on the processing

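Among 407 single-gene calls no sign reversed under any alternative, and the counts for wortmannin, every CR dose and high SR against vehicle stayed within 1.5 times. Leaving out each library in turn gave 36 to 41 for wortmannin, 40 to 42 for high, 33 to 35 for medium and 25 to 26 for low CR, 26 to 28 for high SR, 3 to 6 for high ZRR, 8 to 12 for high ZR, 0 throughout for high PT, 0 to 2 for medium ZR and 0 to 1 for low ZRR. For one dose against another or between treatments it gave 0 to 3 for high against low ZRR, 3 to 8 for ZR, 23 to 24 for SR and 39 to 41 for CR, 2 to 7 for medium against low CR, 29 to 34 for high against medium CR, 22 to 25 for high against medium SR, 19 to 24 for CR against wortmannin and 37 to 39 for SR against CR. Without the filter on low counts, calls against vehicle numbered 8 for high ZR, 3 for high PT, 1 for high ZF, 2 for medium ZRR, 7 for medium ZR, 1 for medium ZF, 3 for low ZRR, 1 for low ZR and 3 for low ZF. Of all genes then tested 2.05%, 3.65%, 1.29%, 2.8%, 6.03%, 0.612%, 3.61%, 1.16% and 1.38% were called in either direction, in that order. For high against low there were 2 in ZRR, 3 in ZR and 1 in PT, with 5 for medium against low CR. The shares there were 2.48%, 2.4%, 1.98% and 1.54%. DESeq2 gave 11 for high ZRR, 4 for medium ZR, 1 for low ZRR and 3 for high against low ZRR. It called 4.47%, 4.33%, 0.613% and 4.85% of all tested genes in either direction, in that order. DESeq2's size factors in edgeR gave 0 for high PT and 2 for high against low ZRR, where 1.25% and 4.12% of all tested genes were called. The length covariate gave 21 for high ZRR, 30 for high ZR, 2 for high PT, 1 for low ZRR, 10 and 15 for high against low ZRR and ZR, 27 for medium against low CR and 1 for the ginger difference in dose effect. Of all tested genes 8.73%, 11.7%, 1.56%, 0.946%, 9.31%, 8.11%, 7.59% and 1.23% were then called in either direction, in that order. Without the 3 libraries of lowest length slope there were 2 for high PT, 10 for medium ZR, 3 each for high against low ZRR and ZR, and 16 for medium against low CR. The shares of all tested genes called in either direction were 5.41%, 16%, 3.28%, 3.85% and 4.53%. With only the libraries compared there were 10 for high ZRR, 0 for high PT, 7 for medium ZRR, 10 for medium ZR (where 7.02%, 0.166%, 14.7% and 18.3% of all tested genes were called in either direction) and 0 each for high against low ZRR, high against low ZR and medium against low CR. References sharing the code number (low ZF for CR, low PT for SR) gave 43, 38 and 19 for high, medium and low CR and 27 for high SR. Of all tested genes 34.7%, 16.7%, 5.11% and 21.7% were called in either direction, in that order. Replicate numbers were not taken as pairs, since no comparison had all 3 same-numbered correlations over 0.1. Low ZR against vehicle had 2, up to 0.21, and this cut cannot show that the numbers mark nothing shared. A replicate block changed the count beyond 1.5 times only for high PT, to 0. The cause of these moves was not tested. NDC80 had the fewest counts of the 43 in any library, 208, which limits the precision of its value.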
